A study of Mus musculus with 6 samples.

Results

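Heat shock proteins and their DNAJ partners were examined in the spinal cord of adult mice that lack Sox2 in astrocytes (Sox2 cKO) and of control mice (Ctrl). The members were the protein-coding genes of the count table named Hspa, Hspb, Hspd, Hspe, Hsph or Hsp90, or Dnaja, Dnajb or Dnajc, each followed by a number. Of 71 such genes, 64 had a summed count of at least 30 over the 6 libraries and were kept, 24 of them heat shock protein genes and 40 DNAJ genes, out of 35275 identifiers in the table and 15346 protein-coding genes with that count. The other 7 were Hspb9, Dnajb7, Dnajc22, Dnajc5b, Hspb3, Dnajb8 and Dnajc5g, with summed counts of 24, 27, 14, 13, 6, 0 and 0. The study sequenced poly(A) RNA of whole spinal cord in bulk, with 3 mice of the Sox2 cKO genotype mGfap-Cre:Sox2fl/fl and 3 Ctrl mice, all C57BL/6. By the paper, each group held 2 females and 1 male, and the column names do not give the sex. The mGfap-Cre transgene expresses Cre recombinase from the mouse Gfap promoter, so the floxed gene is deleted in most astrocytes while the other cells of the cord keep it. The labels give the Ctrl genotype as mGfap-Cre:Sox2+/+, whereas the design text allows mGfap-Cre or Sox2fl/fl mice and the paper names Sox2fl/fl littermates. The age is P90 in the sample characteristics and P80 in the protocol. The columns of the table carry numbers in place of sample names, and columns 2, 4 and 6 were taken as Ctrl and 1, 3 and 5 as Sox2 cKO. Group means computed with that assignment matched, for all 1999 genes that the study lists with group means, the means listed under the same group names within 0.001. In a blot of the paper, mice of each group also carry these numbers.

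Molecular chaperones bind unfolded or partly folded proteins, keep them from aggregating and help them to fold. The HSP70 proteins work in cycles of ATP hydrolysis, which the J domain of a DNAJ protein starts and a nucleotide exchange factor ends. HSP90 proteins act later on signalling proteins, small heat shock proteins hold unfolded proteins without ATP, and the endoplasmic reticulum and the mitochondria have chaperones of their own. When unfolded proteins build up, heat shock factor 1 (HSF1) induces the cytosolic genes, and the unfolded protein response induces those of the endoplasmic reticulum. In nervous tissue these proteins also serve clathrin uncoating and synaptic vesicle proteins, and the small heat shock protein HSPB1 is found in astrocytes under stress.

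Sox2 itself, the deleted gene, was at 19.9, 14.8 and 29.5 CPM in Ctrl libraries 2, 4 and 6 and at 3.16, 2.69 and 2.98 CPM in Sox2 cKO libraries 1, 3 and 5, where CPM is the usual library-scaled count, here with TMM normalisation. All CPM below are given in this order of libraries. The libraries held 21507911 to 28392184 counts, and the members took 1.13% to 1.16% of them in Ctrl and 1.12% to 1.13% in Sox2 cKO. The summed level of 10 astrocyte markers was 7776 to 9934 CPM in Ctrl and 5695 to 5917 CPM in Sox2 cKO, and 5 of them were lower by the test described next. The 5 neutrophil markers were all higher, from 11.3 to 18.0 CPM summed in Ctrl to 21.8 to 68.3 CPM in Sox2 cKO, and 4 of 5 oligodendrocyte precursor markers were lower. The 10 neuron markers spanned 9870 to 10364 CPM in Ctrl and 9931 to 10277 CPM in Sox2 cKO, with 1 of them higher. No marker of these lists was at 0 in all libraries. The part of these cell type markers in the chaperone results was not tested. In RNA of whole tissue, fewer cells of a type and less RNA per cell cannot be told apart.

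Of the 64 members, 9 were higher and 10 lower in Sox2 cKO than in Ctrl at an adjusted p under 0.05 in edgeR's quasi-likelihood test, and 45 were not called. All 64 passed the filter on low counts and were tested among 16137 genes. The 9 higher members are 14.1% of the list, against 12.2% of all genes tested, and the 10 lower members are 15.6%, against 12.4%. Both shares are near those of the whole table. The members' median log2 fold change was -0.02, and that of all genes was 0.02. The 3 libraries of each group did not overlap for 34 members. In 14 of these, 21.9% of the list, all Sox2 cKO libraries were the higher ones, against 22.6% of all genes. In the other 20, which are 31.25% of the list, they were the lower ones, against 22.1% of all genes. Log2 fold changes of the called members ran from -0.56 for Dnajb14 to 0.65 for Hspe1, a range within 1 log2 unit in either direction. Fold changes below are log2 of Sox2 cKO over Ctrl from edgeR, with their standard error, and n = 3 libraries a group. The p-values set the difference between the groups against the spread between libraries of a group. The test estimates that spread with the help of all genes tested.

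With 1 library left out, the number of calls moved across the whole table, and among the members with it. Without Ctrl library 4, edgeR called 0 members, and it called 0.0794% of all genes higher and 0.0794% lower. Of the 64 members, 22 had an unadjusted p under 0.05 in that fit, against 4758 of all 16373 genes tested. Without Sox2 cKO library 1 edgeR again called 0 members, and 0.0182% of all genes higher and 0.0303% lower. There, too, 22 members had an unadjusted p under 0.05, against 4945 of all 16482 genes tested. DESeq2 called 2 members higher and 6 lower without Ctrl library 4, against 6.24% and 7.67% of all genes, and 4 higher and 8 lower without Sox2 cKO library 1, against 7.34% and 10.5%. Without Ctrl library 6 edgeR called 2 higher and 1 lower, against 3.64% and 2.90% of all genes, and the same numbers without Sox2 cKO library 3, against 4.27% and 4.04%. It called 2 higher and 6 lower without Sox2 cKO library 5, against 8.13% and 8.18%. Without Ctrl library 2 it called 13 higher and 14 lower, against 18.3% and 18.6%. The direction of all 19 called members was the same in each of these fits, and the log2 fold change of Hspe1, for one, ran from 0.55 to 0.84 in edgeR. The fits without Ctrl library 2 and without Ctrl library 4 hold equally many libraries of each group, and called 27 and 0 members. Against the fit of all libraries, the effect of a given library cannot be told apart from that of having fewer libraries. Why the fits differ was not tested. Hspe1, Hspb1 and Dnajc18 were called in 4 of the 6 edgeR fits, and every other called member in 1 or 2. DESeq2 on all libraries called 8 members higher and 12 lower, against 12.7% and 15.0% of all genes, and 18 of the calls were shared. Hspb11 was called by edgeR only, and Dnajc27 and Hsph1 by DESeq2 only.

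**Figure D1:**
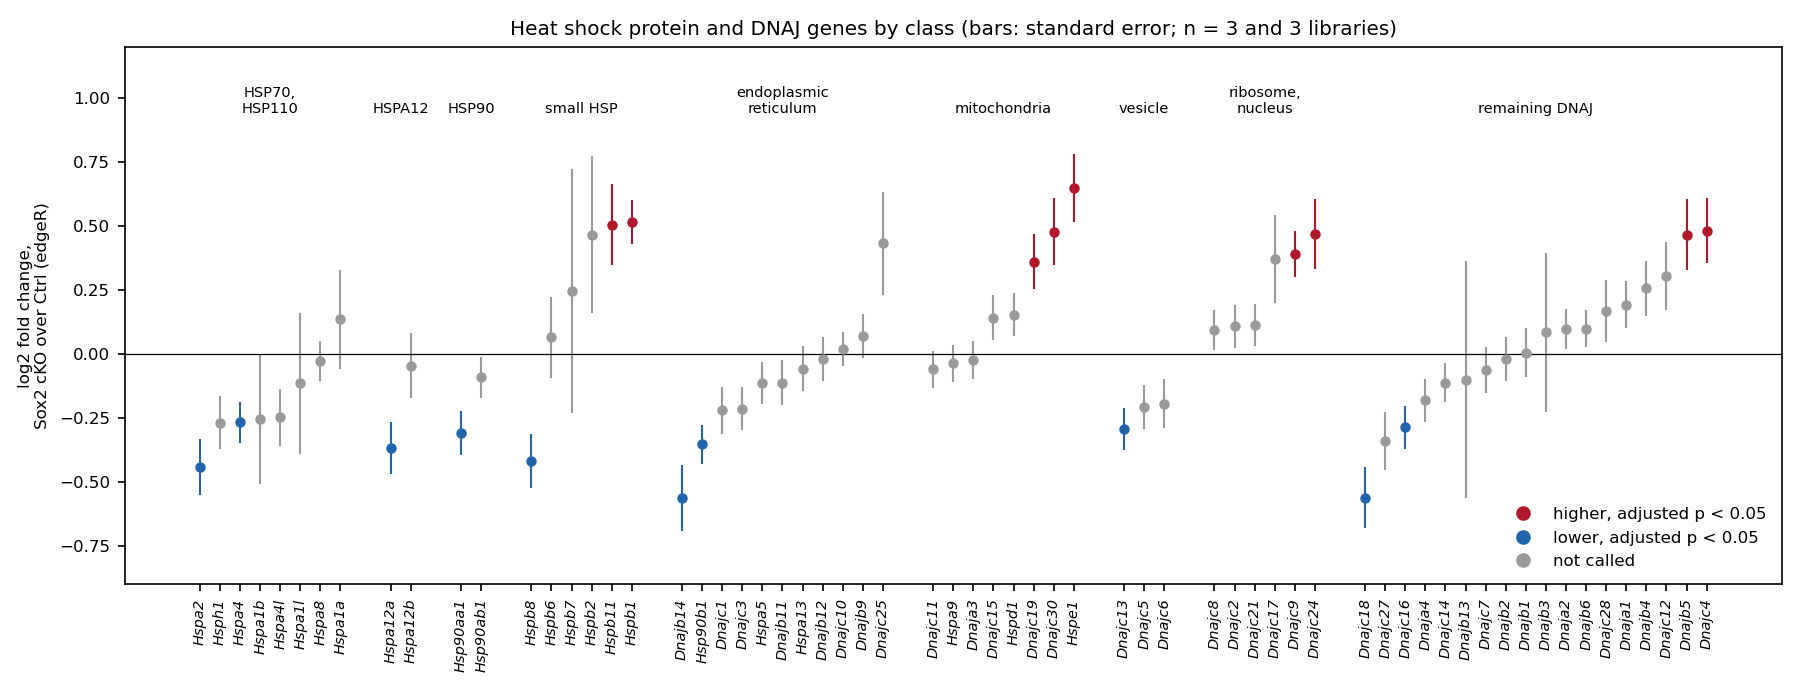
Log2 fold change of each of the 64 members (points) with its standard error (bars), grouped by class on the horizontal axis, for 3 Sox2 cKO against 3 Ctrl libraries. The 9 red and 10 blue points passed an adjusted p of 0.05 in edgeR, mitochondrial calls being red and those of the HSP70, HSP90 and endoplasmic reticulum classes blue.

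Upstream sequences are shown first for the chaperones that the classic stress regulators are known to act on, since the heat-inducible and the endoplasmic reticulum genes are followed member by member below. RefSeq windows of 250 bases before to 50 bases after each annotated start, on build GRCm38.p6, were found for 52 of the 64 members and for 27025 genes in all. A heat shock element, the site that HSF1 binds, is built of units that read GAA and TTC in turn with 2 free bases between neighbours. It was searched on both strands as 3 units and as 2 units, and every 3-unit match contains the 2-unit form. The 3-unit form was present in 4 members, Hspd1, Hspe1, Dnajb6 and Hsph1, which are 7.69% of the 52, against 0.662% of all genes. Of the 10 heat-inducible members with an entry, 3 held it. The 2-unit form was present in 14 of 52 members and in 8 of the 10 heat-inducible ones, against 17.0% of all genes. The match of Hspe1, in capitals, is 2 overlapping 3-unit elements. Hspd1 holds the same bases on the other strand, since the pair of genes starts head to head. Hspd1 has starts 95 and 216 bases from that of Hspe1. Its match is at -144 to -127 from the start 216 bases away, and these bases lie downstream of the other start. The bases shown for Hspe1 overlap an exon of the Hspd1-202 transcript in GENCODE M21, and those shown for Dnajb6 overlap exons of Dnajb6-201 and Gm5129-201. Positions are relative to the start, negative before it.
Hspe1, chr1:55088053-55088082, plus strand, match at -89 to -72: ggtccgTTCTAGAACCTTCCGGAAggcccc
Dnajb6, chr5:29735844-29735872, plus strand, match at -46 to -34: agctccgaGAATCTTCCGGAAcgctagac

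The endoplasmic reticulum stress element, which reads CCAAT and, after 9 free bases, CCACG, was searched on both strands and was present in 3 members, Hspa5, Hsp90b1 and Dnajc3, all of the endoplasmic reticulum class. It was found in 3 of the 10 members of that class with an entry, against 0.137% of all genes. Hsp90b1 held 2 matches. The bases shown for Hspa5 overlap an exon of Hspa5-201, and those shown for Hsp90b1 and Dnajc3 overlap no annotated exon. The capitals mark the match.
Hspa5, chr2:34772020-34772048, plus strand, match at -65 to -47: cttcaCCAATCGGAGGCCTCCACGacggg
Hsp90b1, chr10:86705633-86705661, minus strand, match at -212 to -194: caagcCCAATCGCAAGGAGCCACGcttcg
Hsp90b1, chr10:86705528-86705556, minus strand, match at -107 to -89: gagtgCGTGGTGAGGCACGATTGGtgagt
Dnajc3, chr14:118937822-118937850, plus strand, match at -105 to -87: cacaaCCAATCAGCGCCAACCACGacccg
A match is a description of these letters. Among the members with an entry, the 3-unit heat shock element was in 1 of 8 called higher, 0 of 8 called lower and 3 of 36 not called.

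The 13 heat-inducible members, listed as raised by HSF1 after heat, included Hspa8 and Hsp90ab1, both called constitutive below. Of the 13, 2 rose, 1 fell and 10 were not called, with a median log2 fold change of 0.00. Those that rose and fell are 15.4% and 7.69% of the list, against 12.2% and 12.4% of all genes. Hspe1 (ENSMUSG00000073676, chr1:55088132-55091307), the lid of the mitochondrial folding chamber, was at 89.0, 61.4 and 64.2 CPM in Ctrl and 121, 106 and 109 CPM in Sox2 cKO. Every Sox2 cKO library was above every Ctrl library, with Ctrl library 2 the closest. It rose by 0.65 ± 0.13 on the log2 scale, adjusted p = 0.0137, the largest change among the members in this fit. Its partner in the head-to-head pair with the heat shock element shown above, Hspd1 (ENSMUSG00000025980, chr1:55077835-55088243), which forms the chamber itself, was at 235, 201 and 213 CPM in Ctrl and 239.6, 237 and 245 CPM in Sox2 cKO. The groups did not overlap, but the difference of 0.15 ± 0.08 (log2, adjusted p = 0.205) was not called. Hspb1 (ENSMUSG00000004951, chr5:135887919-135889563), the small heat shock protein HSP25, was at 26.9, 27.4 and 25.4 CPM in Ctrl and 40.7, 36.6 and 36.9 CPM in Sox2 cKO. The Ctrl libraries lay close together and below all Sox2 cKO libraries, and the gene rose by 0.52 ± 0.09 on the log2 scale, adjusted p = 0.0125.

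Hsp90aa1 (ENSMUSG00000021270, chr12:110690605-110702728), the stress-inducible cytosolic HSP90, was the member of this set that fell. It was at 1861, 1935 and 2108 CPM in Ctrl and 1608, 1534 and 1624 CPM in Sox2 cKO, without overlap. Its log2 fold change was -0.31 ± 0.09, adjusted p = 0.0286. The constitutive Hsp90ab1 (ENSMUSG00000023944) was at 1706, 1625 and 1724 CPM in Ctrl and 1549, 1568 and 1625 CPM in Sox2 cKO, where Ctrl library 4 and Sox2 cKO library 5 were almost level. Its log2 fold change was -0.09 ± 0.08, adjusted p = 0.418, and it was not called. Hspa8, the constitutive HSP70 that also strips clathrin from vesicles, was at 2064, 1977 and 2042 CPM in Ctrl and 1963, 1959 and 2043 CPM in Sox2 cKO. The groups overlapped, with a log2 fold change of -0.03 ± 0.08, adjusted p = 0.818.

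The strictly inducible pair Hspa1a and Hspa1b, whose RNA is low without stress, was low in all libraries. Hspa1a was at 7.22, 6.49 and 4.20 CPM in Ctrl and 6.54, 6.96 and 6.20 CPM in Sox2 cKO. Hspa1b was at 9.06, 12.3 and 6.03 CPM in Ctrl and 5.49, 9.24 and 8.16 CPM in Sox2 cKO. The groups overlapped for both genes, with log2 fold changes of 0.13 ± 0.19 and -0.26 ± 0.26 and adjusted p of 0.639 and 0.483. Dnajb1, the main inducible HSP70 partner, was at 66.5, 64.2 and 55.4 CPM in Ctrl and 56.0, 65.2 and 65.5 CPM in Sox2 cKO, which overlapped, with a log2 fold change of 0.00 ± 0.10, adjusted p = 0.976. Its relative Dnajb4 was at 59.0, 52.8 and 46.0 CPM in Ctrl and 56.3, 67.9 and 64.1 CPM in Sox2 cKO, with a log2 fold change of 0.26 ± 0.11, adjusted p = 0.103. Dnaja1, a farnesylated HSP70 partner, was at 309, 257 and 266 CPM in Ctrl and 310.3, 328 and 314 CPM in Sox2 cKO. All its Sox2 cKO libraries were above the Ctrl libraries, Ctrl library 2 being almost level with Sox2 cKO library 1, and the difference of 0.19 ± 0.09 (log2, adjusted p = 0.143) was not called. The HSP110 proteins exchange the nucleotide of HSP70. Hsph1 was at 438, 497 and 541 CPM in Ctrl and 397, 379.9 and 448 CPM in Sox2 cKO, overlapping, with a log2 fold change of -0.27 ± 0.10, adjusted p = 0.0787, and an adjusted p of 0.0331 in DESeq2. Hspa4l was at 353, 406 and 356 CPM in Ctrl and 264, 343 and 331 CPM in Sox2 cKO, without overlap, with a log2 fold change of -0.25 ± 0.11, adjusted p = 0.126.

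**Figure D2:**
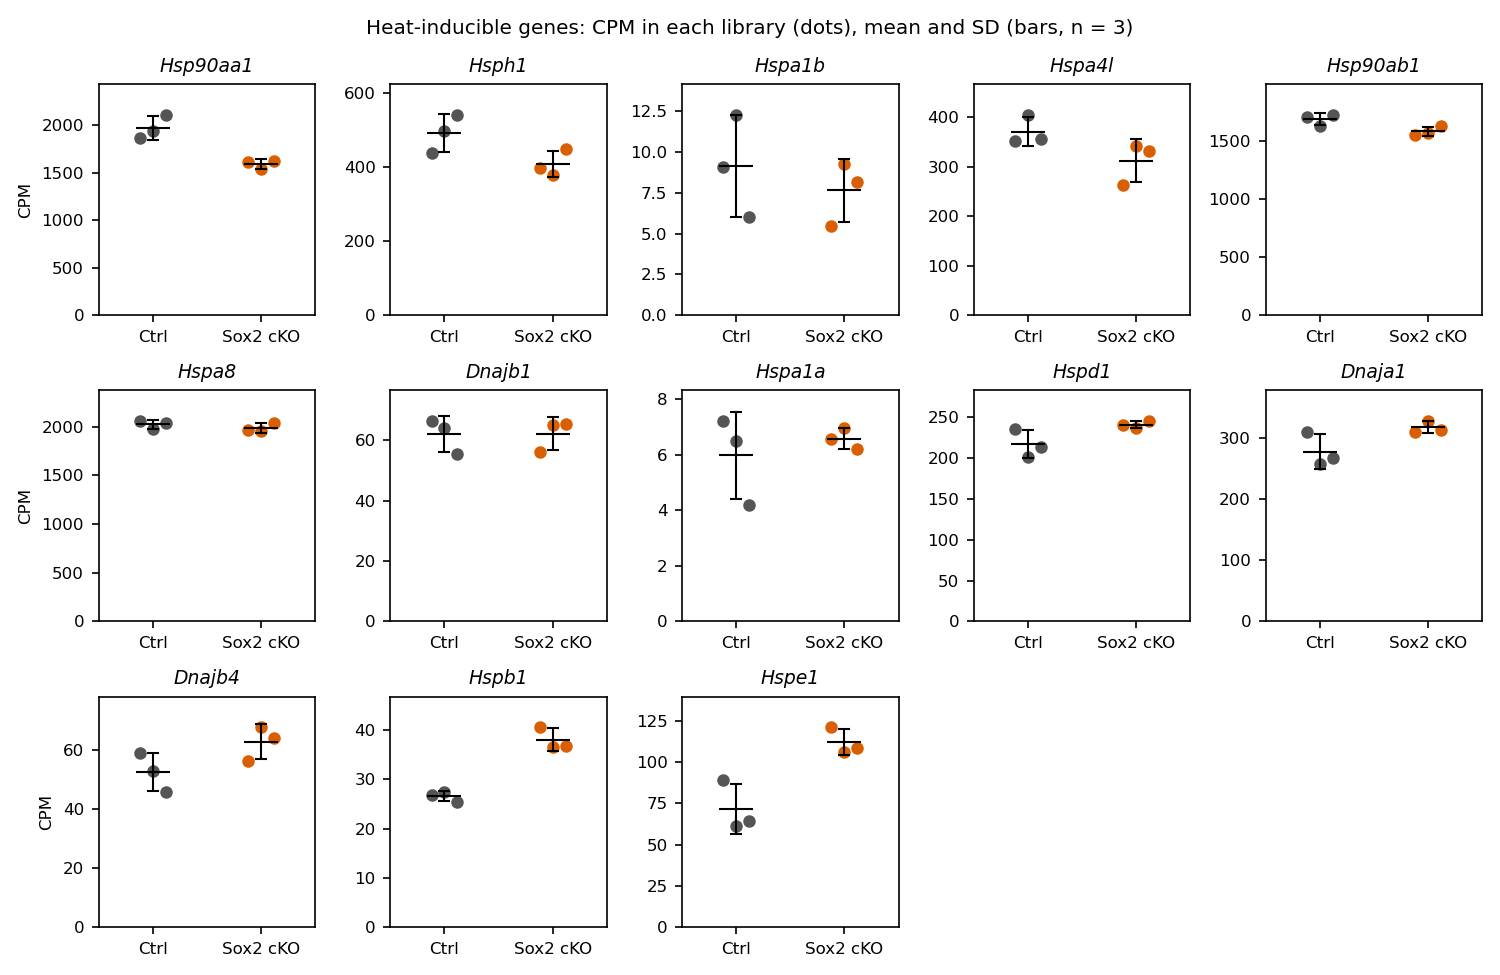
CPM (vertical axes, from 0) of the 13 heat-inducible members in each library (dots), with the group mean and SD (bars, n = 3), in order of log2 fold change from Hsp90aa1 to Hspe1. Hsp90aa1, Hspb1 and Hspe1 passed the edgeR test, and the dots of Hspa1a, Hspa1b, Hspa8, Hsp90ab1, Dnajb1, Dnajb4 and Hsph1 overlap between the groups.

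Per length, cytosolic chaperones were the most abundant members. Hsp90ab1 averaged 647 FPKM over the 6 libraries, Hspa8 636 FPKM, Hsp90aa1 539.7 FPKM and Hspa5, the HSP70 of the endoplasmic reticulum, 120.0 FPKM. In FPKM, which were not TMM-normalised, Hsp90ab1 was at 646 ± 26.1 FPKM (SD, n = 3) in Ctrl and 649 ± 5.27 FPKM in Sox2 cKO. Hspa8 was at 620.1 ± 25.3 FPKM in Ctrl and 651 ± 9.28 FPKM in Sox2 cKO, and since these spreads overlap, the order of the pair was not set. Hsp90aa1 was at 579 ± 23.2 FPKM and 501 ± 18.0 FPKM and was the third in both groups. Hspa5 was at 121 ± 2.38 FPKM and 119 ± 4.63 FPKM. Hspe1 was at 71.9 ± 17.1 FPKM in Ctrl, below the means of Hsph1, Hspa9, Hsp90b1 and Hspd1, and at 120.4 ± 11.2 FPKM in Sox2 cKO, above the means of these 4 and level with Hspa5 within the spread. The lowest member was the muscle small heat shock protein Hspb7, at 0.344 FPKM. Between replicates, the SD of log2 CPM had a median of 0.116 over the members in Ctrl and 0.0872 in Sox2 cKO, and was highest for Hspb2 in Ctrl, at 0.562, and for Hspb7 in Sox2 cKO, at 0.988.

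In all classes below, counts of called genes stand beside 12.2% of all genes called higher and 12.4% called lower. No class was tested as a set. Cytosolic HSP70 and HSP110 genes numbered 8, of which 0 rose and 2 fell, with a median log2 fold change of -0.25. Fold changes were below 0 in 7 of the 8, but that of Hspa8 turned above 0 with upper quartile normalization and with limma on FPKM. That of Hspa4l did so with the length correction and that of Hspa1b without Ctrl library 4. That of Hspa1l ranged from -0.41 to 0.081 in edgeR without a library. The 6 not called ran from -0.27 for Hsph1 to 0.13 for Hspa1a, with the testis HSP70 Hspa1l at -0.12. Hspa2, an HSP70 best known from spermatogenesis and also made in brain, was at 25.3, 26.9 and 30.9 CPM in Ctrl and 19.5, 19.1 and 22.5 CPM in Sox2 cKO. The groups did not overlap, and it fell by 0.44 ± 0.11 on the log2 scale, adjusted p = 0.02. Hspa4, an HSP110, was at 305, 331 and 336 CPM in Ctrl and 261, 266 and 281 CPM in Sox2 cKO. All Sox2 cKO libraries were lower, with a log2 fold change of -0.27 ± 0.08, adjusted p = 0.0376. The atypical HSP70 genes encode proteins with a divergent ATPase domain. Hspa12a, found in brain, was at 295, 346 and 323 CPM in Ctrl and 219, 253 and 274 CPM in Sox2 cKO. It fell without overlap, with a log2 fold change of -0.37 ± 0.10, adjusted p = 0.029. Hspa12b, known from endothelium, was at 15.4, 18.5 and 15.1 CPM in Ctrl and 17.7, 13.8 and 16.1 CPM in Sox2 cKO, overlapping, with a log2 fold change of -0.05 ± 0.13, adjusted p = 0.808.

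Of the 6 small heat shock protein genes, 2 rose and 1 fell. Besides Hspb1, Hspb11 rose, which encodes the intraflagellar transport protein IFT25 and is no chaperone in the usual sense. It was at 4.98, 3.95 and 4.44 CPM in Ctrl and 6.72, 6.58 and 5.67 CPM in Sox2 cKO, without overlap, with a log2 fold change of 0.50 ± 0.16, adjusted p = 0.0428, and its adjusted p in DESeq2 was 0.0547. Hspb8, which works with BAG3 in selective autophagy, was the one that fell. It was at 55.5, 61.4 and 72.4 CPM in Ctrl and 49.3, 43.5 and 48.8 CPM in Sox2 cKO, all Sox2 cKO libraries being lower, with a log2 fold change of -0.42 ± 0.11, adjusted p = 0.0217. The muscle-enriched Hspb2, Hspb6 and Hspb7 were not called. Hspb2 was at 1.26, 1.79 and 0.821 CPM in Ctrl and 2.15, 1.74 and 1.51 CPM in Sox2 cKO, overlapping, with a log2 fold change of 0.47 ± 0.31, adjusted p = 0.286. Hspb6 was at 10.5, 9.56 and 9.37 CPM in Ctrl and 8.61, 9.52 and 12.7 CPM in Sox2 cKO and Hspb7 at 0.718, 1.16 and 0.724 CPM in Ctrl and 0.791, 0.478 and 1.85 CPM in Sox2 cKO, both highest in Sox2 cKO library 5. The summed level of 6 skeletal muscle markers was 15.4, 7.90 and 6.18 CPM in Ctrl and 34.0, 4.78 and 80.6 CPM in Sox2 cKO, also highest in library 5, with 1 of the 6 called higher, and its part in these values was not tested.

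Endoplasmic reticulum chaperones numbered 11, of which 0 rose and 2 fell, with a median log2 fold change of -0.11. Hsp90b1 (ENSMUSG00000020048, chr10:86690209-86705509), the HSP90 known as GRP94 and carrier of 2 stress element matches above, was at 295, 313 and 320.4 CPM in Ctrl and 240.4, 238 and 247 CPM in Sox2 cKO. The groups were far apart for their spread, with a log2 fold change of -0.35 ± 0.08, adjusted p = 0.015. Hspa5, known as BiP, also with a stress element match, was at 319, 321 and 340.0 CPM in Ctrl and 282, 311 and 312 CPM in Sox2 cKO. Its groups did not overlap, but its difference of -0.12 ± 0.08 (log2, adjusted p = 0.318) was not called. Dnajc3, the co-chaperone P58IPK and the third with a match, was at 99.7, 111 and 114 CPM in Ctrl and 87.8, 94.3 and 97.9 CPM in Sox2 cKO, also without overlap and not called, with a log2 fold change of -0.21 ± 0.08, adjusted p = 0.083. Dnajb14 (ENSMUSG00000074212), a J protein of the endoplasmic reticulum membrane, was at 183, 239.7 and 242 CPM in Ctrl and 129, 154 and 166 CPM in Sox2 cKO. It fell by 0.56 ± 0.13 on the log2 scale, adjusted p = 0.0165, with Dnajc18 the lowest fold change among the members in this fit. The stress-inducible Dnajb9 ran from 43.6 to 51.7 CPM in Ctrl and from 49.3 to 52.2 CPM in Sox2 cKO, overlapping, with a log2 fold change of 0.07 ± 0.09, adjusted p = 0.575. The 9 genes not called ran from -0.22 for Dnajc1 to 0.43 for Dnajc25, with Dnajb11, Hspa13, Dnajb12 and Dnajc10 between -0.11 and 0.02.

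Mitochondrial chaperones numbered 8, of which 3 rose and 0 fell, with a median log2 fold change of 0.15. The 3 were Hspe1, described above, Dnajc30 and Dnajc19. Dnajc30, a J protein tied to complex I, was at 7.67, 6.40 and 6.37 CPM in Ctrl and 9.40, 9.48 and 9.60 CPM in Sox2 cKO. It rose without overlap, with a log2 fold change of 0.48 ± 0.13, adjusted p = 0.0281. Dnajc19, a part of the protein import motor, was at 24.4, 18.7 and 22.4 CPM in Ctrl and 27.9, 28.6 and 27.5 CPM in Sox2 cKO, also without overlap, with a log2 fold change of 0.36 ± 0.11, adjusted p = 0.0364. Hspa9, the HSP70 of mitochondria that the import motor uses, was at 300.4, 291 and 293 CPM in Ctrl and 288, 286 and 287 CPM in Sox2 cKO. All Sox2 cKO libraries were lower by a small margin and it was not called, with a log2 fold change of -0.04 ± 0.07, adjusted p = 0.733. Its SD of log2 CPM in Sox2 cKO was the smallest among the members. The 5 genes not called lay between -0.06 for Dnajc11 and 0.15 for Hspd1, with Dnaja3 at -0.02 and Dnajc15 at 0.14.

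Of 3 DNAJ genes for vesicles and endosomes, 0 rose and 1 fell, and all 3 were lower without overlap between groups. Of all genes, 12.4% were called lower and 22.1% were lower without overlap. The median length of these 3 was 6578 bases, against 3060 bases for all genes. Dnajc13, an endosomal protein known as RME-8, was at 60.2, 69.7 and 64.0 CPM in Ctrl and 49.9, 54.3 and 54.1 CPM in Sox2 cKO, with a log2 fold change of -0.29 ± 0.08, adjusted p = 0.0303. Dnajc5, the synaptic vesicle protein CSP-alpha, was at 357, 401 and 394 CPM in Ctrl and 311, 339 and 347 CPM in Sox2 cKO, not called, with a log2 fold change of -0.21 ± 0.09, adjusted p = 0.0984. Dnajc6, the auxilin that brings HSP70 to clathrin coats in neurons, was at 208, 227 and 221 CPM in Ctrl and 167, 205 and 201 CPM in Sox2 cKO, also not called, with a log2 fold change of -0.20 ± 0.10, adjusted p = 0.158. Of 6 genes for ribosomes and the nucleus, 2 rose and 0 fell. Dnajc9, a histone chaperone, was at 31.2, 27.9 and 26.2 CPM in Ctrl and 36.1, 37.2 and 38.5 CPM in Sox2 cKO. All Sox2 cKO libraries were higher, with a log2 fold change of 0.39 ± 0.09, adjusted p = 0.0177. Dnajc24, which takes part in the diphthamide modification of a translation factor, was at 10.3, 7.82 and 8.74 CPM in Ctrl and 11.4, 13.5 and 12.3 CPM in Sox2 cKO, higher in all Sox2 cKO libraries, with a log2 fold change of 0.47 ± 0.14, adjusted p = 0.035. The other 4 were not called, with log2 fold changes of 0.09 for Dnajc8, 0.11 for Dnajc2, 0.11 for Dnajc21 and 0.37 for Dnajc17.

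Among the 18 remaining DNAJ genes, 2 rose and 2 fell. Dnajc18 (ENSMUSG00000024350), a membrane J protein related to Dnajb14, was at 138, 169 and 187 CPM in Ctrl and 100.1, 113 and 121 CPM in Sox2 cKO. It fell without overlap, with a log2 fold change of -0.56 ± 0.12, adjusted p = 0.0145. Dnajc16 was at 56.0, 59.1 and 56.3 CPM in Ctrl and 42.8, 48.1 and 49.4 CPM in Sox2 cKO, likewise without overlap, with a log2 fold change of -0.29 ± 0.08, adjusted p = 0.0319. The members that rose were Dnajb5 and Dnajc4. Dnajb5, an HSP70 partner also found in the nucleus, was at 34.0, 28.6 and 21.7 CPM in Ctrl and 39.4, 36.9 and 40.2 CPM in Sox2 cKO, with a log2 fold change of 0.47 ± 0.14, adjusted p = 0.0373. Dnajc4 was at 11.9, 10.4 and 8.83 CPM in Ctrl and 14.9, 14.2 and 14.6 CPM in Sox2 cKO, with a log2 fold change of 0.48 ± 0.13, adjusted p = 0.0251. The Sox2 cKO libraries of both were above all Ctrl libraries, and Ctrl library 6 was the lowest. Dnajc27 was at 199, 231 and 230.3 CPM in Ctrl and 146, 184 and 191 CPM in Sox2 cKO and lay just beyond the threshold, with a log2 fold change of -0.34 ± 0.11, adjusted p = 0.0501, and 0.0157 in DESeq2. It was the lowest of the 14 not called, and Dnajc12 was the highest at 0.30. Dnaja4, Dnajc14, Dnajb13, Dnajc7 and Dnajb2 lay below 0, down to -0.18, and Dnajb3, Dnaja2, Dnajb6 and Dnajc28 above 0, up to 0.17, beside Dnajb1, Dnaja1 and Dnajb4, which are given above.

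**Figure D3:**
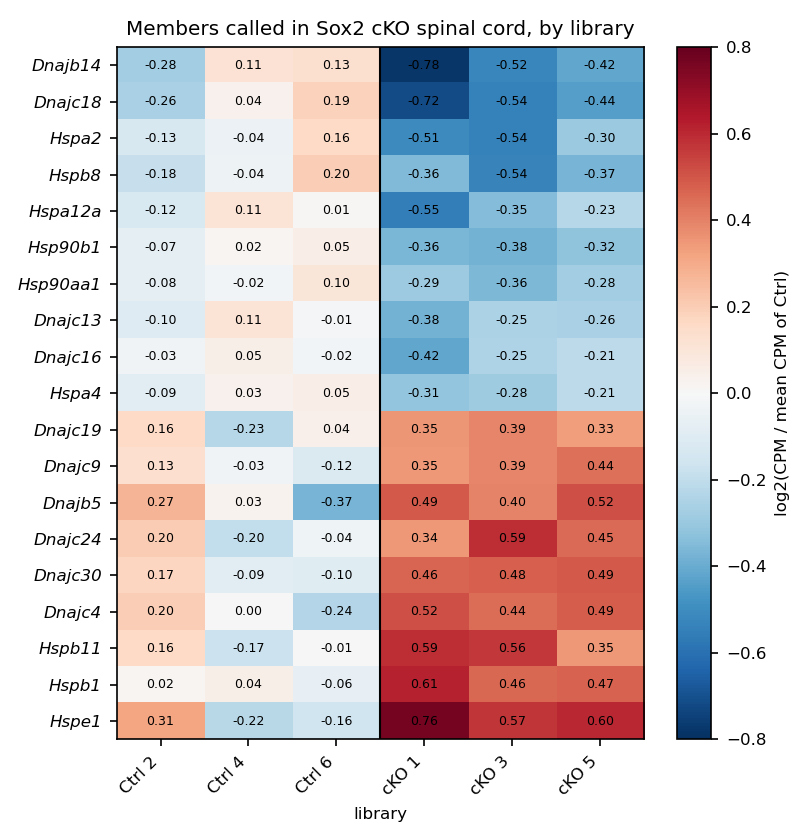
Log2 of CPM over the mean CPM of Ctrl (colour and printed number) for the 19 called members (rows) in each library (columns), 3 Ctrl on the left and 3 Sox2 cKO on the right. Ctrl library 2 lies on the Sox2 cKO side of the Ctrl mean in all 10 genes that fell and in all 9 that rose, and every Sox2 cKO value lies beyond every Ctrl value of its gene.

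The fold changes followed gene length across the table, and the members followed it as well. Gene length is the one the authors used for FPKM. Among the shortest of 5 equal bins of genes, up to 1708 bases, 30.4% of 3228 genes were called higher and 1.73% lower, and of 12 members there 7 were called higher and 0 lower. In the longest bin, from 4869 bases, 1.73% were called higher and 36.0% lower, and of 13 members there 1 was called higher and 5 lower. The median length was 1502 bases for the 9 members that rose, 4893.5 bases for the 10 that fell and 2918 bases for the 45 not called, against 3060 bases for all genes. With a length correction fitted in each library, 3 members were called higher and 5 lower, against 6.08% and 6.99% of all genes. The median was then -0.04 for the members and 0.00 for all genes. The 7 calls shared by the fits were those of Hspe1, Dnajb5, Hspa2, Hspb8, Hsp90b1, Hsp90aa1 and Dnajc18. By class, 1 mitochondrial gene was called higher with the correction, and 1 gene was called lower in each of the cytosolic HSP70, HSP90, small heat shock protein and endoplasmic reticulum classes. Among the remaining DNAJ genes, Dnajb5 and Dnaja1 were called higher and Dnajc18 lower, and 0 genes in either direction among the vesicle, the ribosome and nuclear and the atypical HSP70 genes. The median log2 fold change of the mitochondrial class was then 0.08, that of the endoplasmic reticulum class -0.06, and that of the vesicle class 0.02. Median lengths were 2461 bases in the mitochondrial, 4023 in the endoplasmic reticulum, 6578 in the vesicle and 1734 in the ribosome and nuclear class.

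With the correction, the log2 fold change of Hspe1 was 0.31, adjusted p = 0.0487. That of Hspb1, among the shortest members at 930 bases, was 0.16, adjusted p = 0.214, and its call was lost. Dnajb14, at 9477 bases, was at -0.21, adjusted p = 0.0814, and lost its call too. Members whose length is near the middle changed little, such as Hsp90aa1 at -0.32, adjusted p = 0.0285, and Hsp90b1 at -0.37, adjusted p = 0.0187. Hspb8, a short gene that fell, was at -0.62, adjusted p = 0.0193, and Dnajb5, a long gene that rose, at 0.61, adjusted p = 0.0318. Dnaja1 was called only with the correction, at 0.37, adjusted p = 0.0369. The 12 calls lost were those of Hspb1, Hspb11, Dnajc4, Dnajc9, Dnajc19, Dnajc24, Dnajc30, Dnajb14, Dnajc13, Dnajc16, Hspa4 and Hspa12a, and the sign turned for Dnajc13, to 0.02. The paper states a lower limit of the RNA integrity number for all its samples together and no value for each library. Whether RNA quality differed between the libraries was not tested. On FPKM, limma called 9 members higher and 4 lower on log2(FPKM + 1), against 18.1% and 6.20% of all genes, and the median of all genes was then 0.09.

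**Figure D4:**
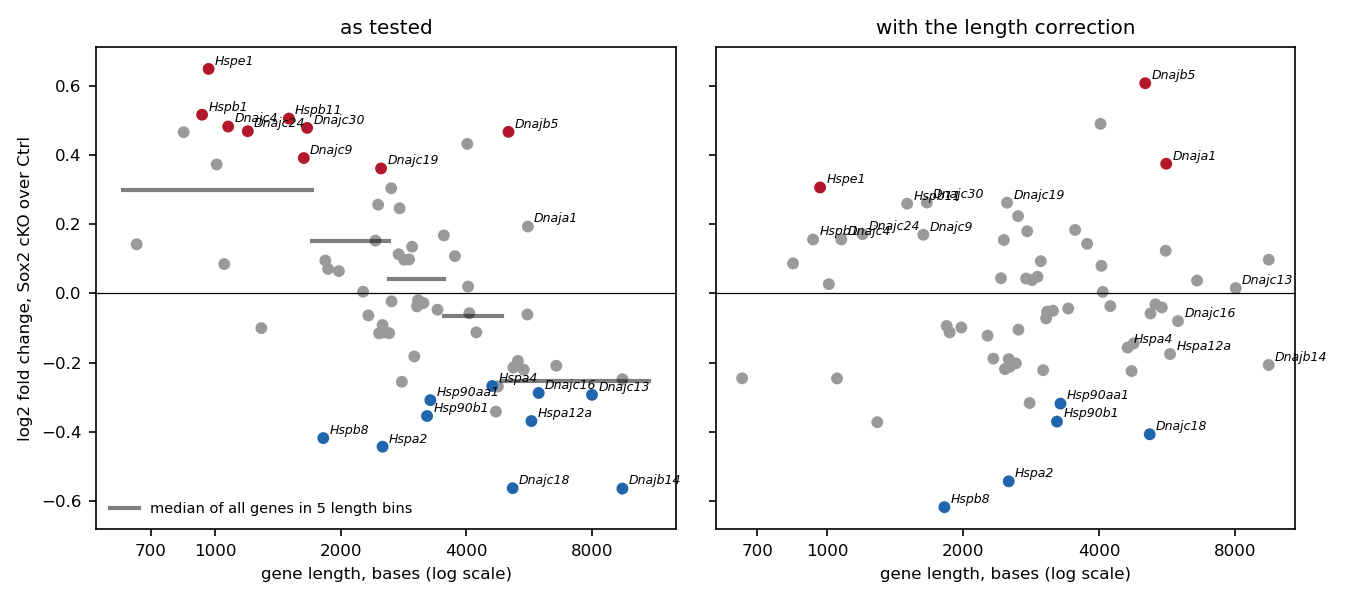
Log2 fold change of the 64 members against gene length in bases (log axis), as tested on the left and with the length correction on the right. Red and blue points are called higher and lower in each fit, and the grey bars give the median of all genes in 5 length bins, from 0.30 in the shortest to -0.25 in the longest.

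Reads from stretches shared with near-identical genes can be lost from the counts of some members or added to them. Which of these occurred was not tested. Of the 50-base words in the exons of Hspa1a and Hspa1b, 60.3% and 62.3% occur in another gene, mostly the other of the pair, so the counts of both are uncertain. The shares were 48.8% for Hspb1, shared most with the pseudogene Hsp25-ps1, 47.5% for Hsp90aa1 with Gm12346, 39.7% for Hspd1 with Hspd1-ps3, 38.6% for Hspa8 with Gm15459 and 18.4% for Hspe1. The pseudogene Hspd1-ps3 itself had 96 counts over the 6 libraries. Hspe1 and Hspd1, Dnajc30 and Bud23, Dnajc19 and Fxr1, Dnaja1 and Smu1, and Hspb2 and Cryab overlap on opposite strands. Among the members called lower, so do Dnajc18 with 1700066B19Rik and Hspa12a with Eno4. In all, 19 members overlap a coding gene on the other strand, 5 of them called, and 4 overlap one on the same strand. The paper names a directional library kit, which keeps the strand of the RNA. The sources used here do not say if reads were counted by strand, so these members' counts are uncertain to that extent.

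Partners of the chaperones that carry other names were listed as 65 genes in 7 groups, of which 63 were tested. Of these, 13 rose and 10 fell, 20.6% and 15.9% against 12.2% and 12.4% of all genes, with a median log2 fold change of -0.05. With the length correction 5 of the 63 were called higher and 14 lower, against 6.08% and 6.99% of all genes. Without Ctrl library 4, and without Sox2 cKO library 1, where few genes of the whole table were called, edgeR called 0 of them, with 26 and 25 at an unadjusted p under 0.05, where DESeq2 called 4 higher and 6 lower, and 6 higher and 7 lower. It called 2 higher and 2 lower without Ctrl library 6, 3 and 3 without Sox2 cKO library 3, 7 and 4 without Sox2 cKO library 5, and 15 and 14 without Ctrl library 2. These counts, too, stand beside the shares and counts of all genes given above for each fit. Of the heat shock factor group of 5, 2 rose. Hsf1, the factor named above, was at 21.9, 19.1 and 18.9 CPM in Ctrl and 28.6, 27.3 and 26.7 CPM in Sox2 cKO, without overlap. It rose by 0.46 ± 0.09 on the log2 scale, adjusted p = 0.0137. Hsbp1, whose product binds HSF1, was at 106, 81.6 and 80.1 CPM in Ctrl and 142, 139 and 131 CPM in Sox2 cKO, with a log2 fold change of 0.62 ± 0.11, adjusted p = 0.0125. With the length correction both kept their calls, at 0.30 and 0.32.

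Of 11 nucleotide exchange factors, 2 rose and 2 fell. Hyou1, the exchange factor of BiP, was at 119, 159 and 155 CPM in Ctrl and 95.4, 95.9 and 106 CPM in Sox2 cKO, lower in every Sox2 cKO library, with a log2 fold change of -0.54 ± 0.11, adjusted p = 0.0141. Grpel1, that of the mitochondrial HSP70, was at 38.6, 32.0 and 34.2 CPM in Ctrl and 46.9, 44.0 and 43.8 CPM in Sox2 cKO, higher in every Sox2 cKO library, with a log2 fold change of 0.36 ± 0.09, adjusted p = 0.0224. Of 14 other genes of endoplasmic reticulum folding and stress, 2 rose and 3 fell. Pdia4, a disulfide isomerase, was at 68.1, 82.0 and 87.1 CPM in Ctrl and 48.6, 53.2 and 60.0 CPM in Sox2 cKO, with a log2 fold change of -0.55 ± 0.11, adjusted p = 0.0132. Manf, a secreted stress protein, was at 57.0, 49.3 and 44.4 CPM in Ctrl and 63.4, 68.7 and 70.6 CPM in Sox2 cKO, with a log2 fold change of 0.43 ± 0.10, adjusted p = 0.0172. Neither gene overlapped between the groups, and they moved in opposite directions. With the length correction Hyou1, Grpel1, Pdia4 and Manf kept their calls.

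Of 14 tested HSP90 and HSP70 co-chaperones, 2 rose and 2 fell. Ppid, the cyclophilin CYP40, was at 76.6, 59.5 and 59.9 CPM in Ctrl and 92.3, 88.3 and 89.2 CPM in Sox2 cKO, with a log2 fold change of 0.46 ± 0.10, adjusted p = 0.0154. Ahsa1, an activator of the HSP90 ATPase, was at 134, 110.2 and 117 CPM in Ctrl and 157, 150.0 and 154 CPM in Sox2 cKO, with a log2 fold change of 0.35 ± 0.09, adjusted p = 0.0221. St13, the HSP70-interacting protein HIP, and Nudc, an HSP90 co-chaperone, fell, with a log2 fold change of -0.34 ± 0.10, adjusted p = 0.0308 for St13 and with a log2 fold change of -0.35 ± 0.10, adjusted p = 0.0377 for Nudc. With the length correction Ahsa1 was at 0.08, adjusted p = 0.417, and lost its call, and 1 gene of the group was called higher and 4 lower. Of 14 subunits of TRiC and prefoldin, which fold actin and tubulin, 4 rose, all of prefoldin, and 1 of TRiC fell. Of these Pfdn6 had the smallest adjusted p, with a log2 fold change of 0.41 ± 0.11, adjusted p = 0.025, and Pfdn1 had 0.35 ± 0.10, adjusted p = 0.0303. With the length correction these were at 0.04 and 0.03 and lost their calls, and 0 genes of the group were called higher and 5 lower. The prefoldin gene Pfdn2 was not called as tested, with a log2 fold change of -0.40 ± 0.13, adjusted p = 0.0545, and had an adjusted p of 0.0138 in DESeq2 and of 0.0319 with the length correction. The alpha-crystallin Cryab, a small heat shock protein by structure and abundant in oligodendrocytes, was at 219, 171 and 192 CPM in Ctrl and 242, 246 and 247 CPM in Sox2 cKO, with a log2 fold change of 0.34 ± 0.10, adjusted p = 0.0331, and at 0.03 with the length correction. Of 4 J-domain genes with other names, 0 rose and 2 fell. Gak, the cyclin G-associated kinase with an auxilin-like J domain, was at 97.8, 109.7 and 108 CPM in Ctrl and 84.0, 90.4 and 90.0 CPM in Sox2 cKO, with a log2 fold change of -0.26 ± 0.08, adjusted p = 0.0397, and at -0.16 with the length correction, where its call was lost.

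**Figure D5:**
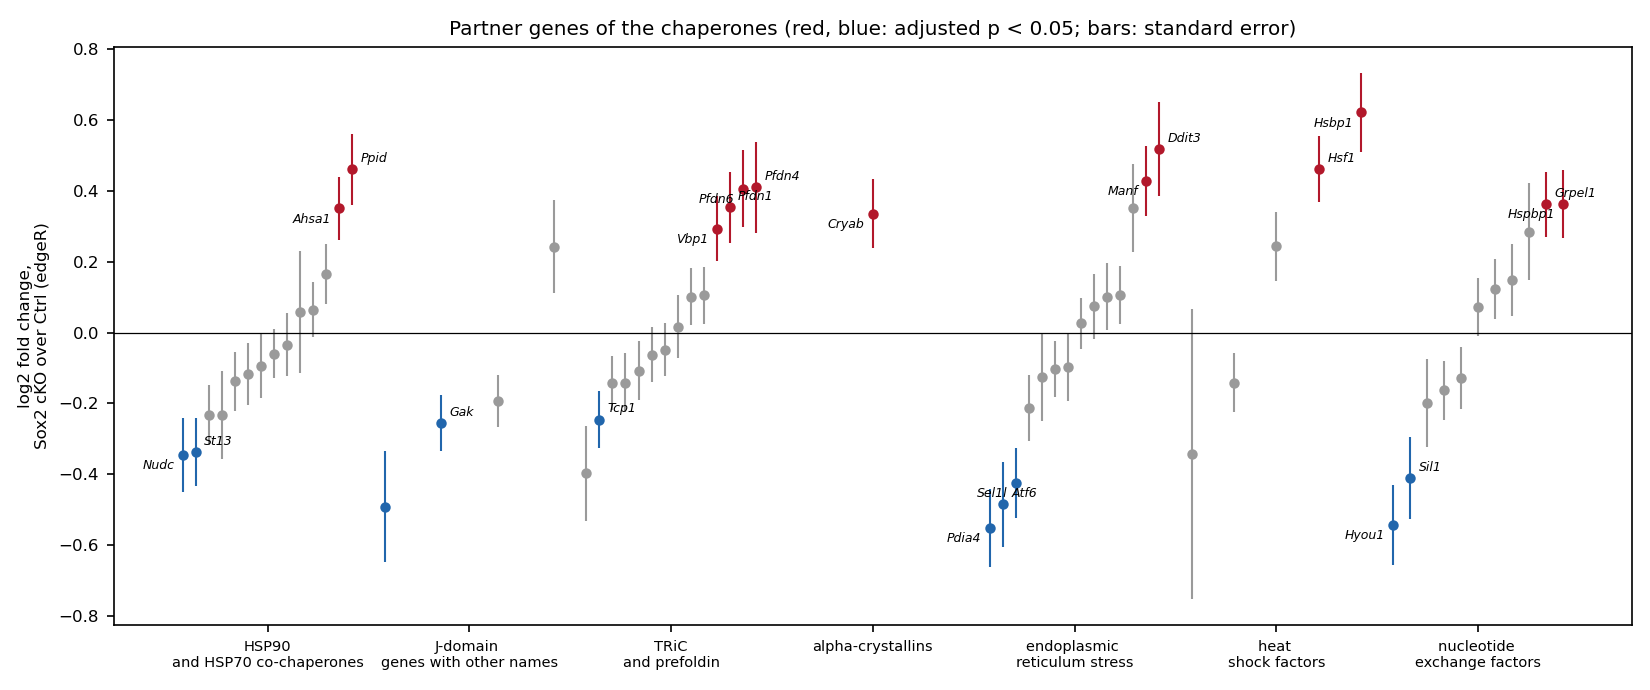
Log2 fold change with standard error of the 63 partner genes tested, in 7 groups along the horizontal axis, for 3 Sox2 cKO against 3 Ctrl libraries. Red and blue points are the 13 genes that rose and the 10 that fell in edgeR, all but 1 of them named, with Hsbp1 the highest at 0.62 and Pdia4 the lowest at -0.55.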

How the data were processed

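Whole spinal cords of 3 Sox2 cKO mice and 3 Ctrl mice gave 6 poly(A) libraries of single-end reads. The authors aligned them to mm10 with STAR 2.5, counted reads per gene with HTSeq 0.6.1 and deposited the counts without normalization. The deposited FPKM values were made by the authors from the same counts with gene length and library total, and gene lengths recovered from both tables were whole within 0.05 for all 24442 genes with a count. The tables held 0 per-sample columns beyond these 6. Symbols, types and positions came from GENCODE M21 (GRCm38, the build of mm10), which matched 34490 of 35275 identifiers, and upstream sequences came from RefSeq (GRCm38.p6).

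Counts were tested over all genes in R 4.3.3 with edgeR 4.0.16 (filterByExpr, TMM, quasi-likelihood test, no covariate, Benjamini-Hochberg at 0.05). The biological coefficient of variation was 0.119. Depth limits mainly the low members, and with 3 against 3 libraries an exact permutation test of 1 gene cannot give p below 0.1. Alternatives were DESeq2 1.42.0, upper quartile normalization, DESeq2 size factors, no filter, at least 10 counts in every library, limma 3.58.1 on log2 FPKM with pseudocounts of 1 and 0.1 (mean FPKM of at least 0.5, a scale that understates the change of low genes), a lowess length correction (span 0.3), and leaving out each library. The fits were tested on simulated data, where false calls in edgeR exceeded the share of 0.05 aimed at. With a length trend added to those data, most calls were false without the length correction and few with it. The members, gene lists, tests and alternatives were chosen with earlier results of these data known. Members named were the heat-inducible set, the 12 largest changes among called members with a mean count of at least 50, the 4 of highest FPKM and, in each list, the 2 of smallest adjusted p, the last also for partner genes, 1 of which is counted but not reported here. Any other gene in the text was picked with its values in view, and the DESeq2 fits without a library were added after the edgeR ones.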

Additional observations from a re-analysis of the deposited data

How the results depend on the processing

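Counts of called members were 9 higher and 10 lower in edgeR. They stayed within 1.5 times of this with DESeq2, upper quartile normalization, DESeq2 size factors, no filter and at least 10 counts, but limma on FPKM called 4 lower with a pseudocount of 1 and 4 with 0.1, and the length correction gave 3 higher and 5 lower. Leaving out each library in turn gave 0 to 13 members higher and 0 to 14 lower in edgeR, and 2 to 13 higher and 5 to 16 lower in DESeq2. The members' median was -0.02 and became 0.022 with upper quartile normalization, 0.072 with limma at a pseudocount of 1 and 0.075 at 0.1, where the median of all genes was 0.11, and -0.048 to 0.022 in edgeR and -0.065 to 0.011 in DESeq2 without a library. Partner genes called lower went from 10 to 6 with upper quartile normalization and to 4 with limma at either pseudocount. With the length correction, those called higher went from 13 to 5 and those called lower from 10 to 14. Without a library they were 0 to 15 higher and 0 to 14 lower in edgeR, and 4 to 14 higher and 5 to 17 lower in DESeq2. Fewer samples enter the fits without a library, equally many in each. The cause of the differences was not tested.

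Of the 420 log2 fold changes of the 30 members named by rule over 14 alternatives, 20 changed sign, 7 passed the threshold only in an alternative, 93 that were called did not pass it and 300 kept their direction and side. Of the called members, Dnajc13 turned sign, to 0.015 with the length correction. Of members not called, the length correction gave 0.097 for Hspa4l, 0.037 for Dnajc5 and -0.12 for Dnajb1. Dnajb1 was also at -0.0076 with DESeq2, -0.0056 with DESeq2 size factors, and -0.069 to 0.076 without a library. Hspa8 was at 0.017 with upper quartile normalization and 0.071 with limma at either pseudocount. Limma gave 0.0076 for Hsp90ab1 at either pseudocount, and 0.045 and 0.053 for Hspa12b. Without a library Hspa12b ranged from -0.13 to 0.052, Hspa1a from -0.059 to 0.29 and Hspa1b from -0.48 to 0.018.

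No paired analysis was possible because the columns of the tables carry no replicate numbers. Low members such as Hspb7, Hspb2 and Hspa1l had wide errors.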
